A study of Rattus norvegicus with 12 samples.

Results

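The comparison described here sets INS-1E cells given a proinflammatory cytokine challenge (CYT) against untreated INS-1E cells, and it rests on 6 of the 12 RNA-seq libraries of the study, 3 per group. INS-1E is a rat insulinoma line that secretes insulin and is used as a β-cell model. All libraries came from this 1 cell line, labelled wild type (WT). CYT cells were exposed over 16 h to IFN-γ at 5 ng/ml plus IL-1β at 100 pg/ml, without preconditioning, and untreated cells received no cytokine. The other 6 libraries, from cells preconditioned with 10 pg/ml IL-1β for 72 h (IL-1βlow) with or without the same challenge, also entered the filter on low counts and the fit, where they add to the estimate of the spread between replicates. The labels call the libraries biological replicates but do not say how the cultures were separated, so the p-values measure the spread between these samples.

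IL-1β signals through its receptor, MyD88 and IRAK kinases to NF-κB, and IFN-γ signals through JAK kinases to STAT proteins and the interferon regulatory factors. In β-cells both routes meet at inducible nitric oxide synthase, chemokines and antigen presentation. Nitric oxide and altered ER calcium are known to engage the unfolded protein response and the ATF4 and CHOP branch of the stress response, and long exposure is known to lower insulin gene expression and to kill β-cells.

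The DNA upstream of 6 genes of these routes is shown so that the letters read by NF-κB, STAT proteins, interferon regulatory factors and ATF4 can be seen beside the expression values. Each line gives the 250 bases before the annotated start in RefSeq (rat build GRCr8), written 5′ to 3′ on the strand of the gene. Capitals mark matches on either strand to 4 motifs, which are the NF-κB consensus, the STAT element GAS (TTCNNNGAA), the interferon-stimulated response element ISRE (GAAANNGAAA), and the ATF4 composite element (TGATGNAA). Irf1 (chr10:38417685-38417934, plus strand) holds a GAS from -142 to -134 and an NF-κB match from -65 to -56, counted back from the start. Cxcl10 (chr14:15988816-15989065, plus strand) holds an ISRE from -243 to -234 and 3 NF-κB matches, of which the last pair overlap by all but 1 base. Tap1 (chr20:4668544-4668793, minus strand) holds an ISRE and an NF-κB match. Nfkbia (chr6:78597073-78597322, minus strand) holds 1 NF-κB match, Rsad2 (chr6:48788121-48788370, minus strand) 1 ISRE and Trib3 (chr3:161275534-161275783, minus strand) 1 ATF4 composite element.
Irf1: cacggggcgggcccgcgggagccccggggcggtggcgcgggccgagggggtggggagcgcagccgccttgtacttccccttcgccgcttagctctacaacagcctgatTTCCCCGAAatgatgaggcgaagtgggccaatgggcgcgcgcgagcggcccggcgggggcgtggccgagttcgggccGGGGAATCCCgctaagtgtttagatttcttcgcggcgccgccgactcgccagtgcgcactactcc
Nfkbia: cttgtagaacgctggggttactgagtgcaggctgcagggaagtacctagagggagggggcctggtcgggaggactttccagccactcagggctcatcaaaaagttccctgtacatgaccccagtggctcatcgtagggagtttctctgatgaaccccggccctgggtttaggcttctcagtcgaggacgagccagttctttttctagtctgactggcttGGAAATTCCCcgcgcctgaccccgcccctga
Cxcl10: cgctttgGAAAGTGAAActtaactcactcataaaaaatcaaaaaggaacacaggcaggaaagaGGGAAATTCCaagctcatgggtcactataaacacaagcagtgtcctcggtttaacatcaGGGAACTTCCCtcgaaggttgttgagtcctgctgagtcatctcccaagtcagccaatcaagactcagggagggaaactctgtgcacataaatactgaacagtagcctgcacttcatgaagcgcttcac
Tap1: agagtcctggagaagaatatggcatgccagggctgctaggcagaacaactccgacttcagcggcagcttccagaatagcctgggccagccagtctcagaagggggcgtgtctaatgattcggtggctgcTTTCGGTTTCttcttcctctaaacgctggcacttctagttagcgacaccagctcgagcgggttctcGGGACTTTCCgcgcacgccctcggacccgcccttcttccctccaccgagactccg
Rsad2: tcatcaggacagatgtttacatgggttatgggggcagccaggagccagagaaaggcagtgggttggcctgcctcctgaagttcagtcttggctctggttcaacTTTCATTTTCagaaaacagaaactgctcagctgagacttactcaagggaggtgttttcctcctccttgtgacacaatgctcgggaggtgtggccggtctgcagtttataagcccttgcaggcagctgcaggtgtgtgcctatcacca
Trib3: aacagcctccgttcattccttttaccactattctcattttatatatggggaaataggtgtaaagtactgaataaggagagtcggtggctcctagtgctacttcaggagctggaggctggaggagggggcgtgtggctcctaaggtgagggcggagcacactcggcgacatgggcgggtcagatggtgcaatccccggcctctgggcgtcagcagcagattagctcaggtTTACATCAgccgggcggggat
Among 27457 promoters of this length, 6.41% held the NF-κB match, 7.52% the GAS, 3.29% the ISRE and 3.27% the ATF4 element. Among the 10925 promoters matched to genes tested, the shares were 8.27%, 5.93%, 2.52% and 1.81%. A match is a description of the letters and not a binding site. A promoter was matched for 77.0% of genes that passed as higher and 71.2% of those that passed as lower. Shares leave out unmatched genes. For higher and lower genes they were 13.5% and 6.95% for NF-κB, 7.31% and 5.76% for the GAS. For the ISRE they were 5.60% and 2.20%, and for ATF4 3.16% and 2.37%. The shares were not tested against each other. The antiviral list had less cover (71.4%), with the ISRE in 13 of 20 promoters, the GAS in 6, the NF-κB match in 1 and the ATF4 element in 0. The islet transcription factor list had the least cover (63.0%). It held the NF-κB match in 3 of 17 promoters, the ISRE in 1, and the GAS and ATF4 element in 0. In shorter lists with better cover, the NF-κB match was found in 8 of the 16 promoters of MHC class I presentation genes, in 6 of 12 of NF-κB and IκB genes and in 6 of 16 of chemokines and cytokines. It was found in 2 of 16 ATF4 and CHOP programme promoters, 1 of 13 of amino acid genes, 2 of 30 of mitosis genes and 0 of 17 of aminoacyl-tRNA synthetases. The ISRE was found in 6 of the 16 MHC class I promoters and 1 of 16 of chemokines and cytokines, and in none of the other 5 lists. The ATF4 element was found in 5 of 17 synthetase promoters, 4 of 16 of the ATF4 and CHOP programme, 2 of 13 of amino acid genes and 1 of 30 of mitosis genes, and in none of the other 3 lists. The GAS was found in 3 of 17 synthetase promoters, 2 of 16 of chemokines and cytokines, 1 of 16 of MHC class I genes and 1 of 13 of amino acid genes, and in none of the other 3 lists.

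CYT changed the expression of a large part of the transcriptome. Of 34034 gene symbols counted, 14324 exceeded 1 CPM (a count scaled to library size) in 2 or more of the 12 libraries and were tested. By edgeR's quasi-likelihood test, 3096 genes (21.6%) passed, which means a log2 fold change beyond 1 in either direction and a Benjamini-Hochberg adjusted p under 0.01. Of these, 1439 (10.0% of genes tested) were higher and 1657 (11.6%) lower in CYT cells. In 3092 of the 3096 genes the values of both groups did not overlap, against 69.3% of all genes tested. Another 4020 genes had an adjusted p under 0.01 with a smaller fold change, and the median log2 fold change of all genes tested was -0.04. A stricter form of the test, which asks whether the change itself exceeds the fold threshold, left 849 higher and 555 lower genes. Below, a number in parentheses after a gene symbol is its log2 fold change, CYT minus untreated, and list medians are medians of the same measure. Counts of list members that passed stand against 10.0% higher and 11.6% lower among all genes tested. Groups said not to overlap stand against 69.3%. The lists were chosen with earlier results of these data known, so their counts are descriptions and not independent evidence.

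The largest changes were upward. A log2 fold change above 3 in size was reached by 296 of the higher genes and 94 of the lower ones, and one above 5 by 118 and 10. Among the 3581 genes with the lowest mean expression, 23.5% passed as lower and 12.4% as higher, whereas among the 3581 with the highest expression 5.25% passed as lower and 9.30% as higher. Genes that passed as higher took 4.24% ± 0.164 of the counts in untreated cells and 13.8% ± 0.855 in CYT cells (SD, n = 3). Genes that passed as lower took 13.6% ± 0.421 and 4.71% ± 0.375. At most 3 counts in every untreated library and CPM above 1 in every CYT library were found for 69 genes, and the reverse held for 7. A gene raised from none enters the filter through the CYT libraries alone, so the 69 genes had to differ. The same limit holds for members of the lists below that were near 0 in untreated cells. Listed genes that stayed low or had no count, such as Gpx1, Eif4ebp1 and Ldha at 0 in all 6 libraries, were not tested. A 0 can mean no expression or reads not counted for that symbol, and this was not tested for any gene given at 0 below.

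**Figure D1:**
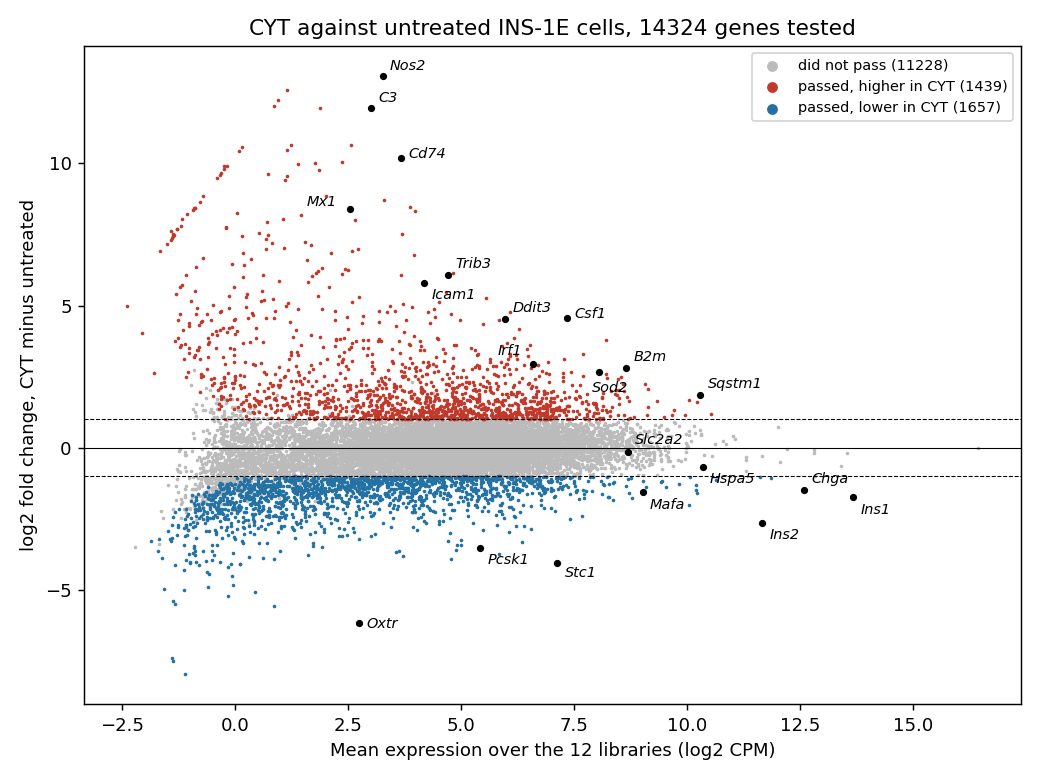
Each point is 1 of the 14324 genes tested, with mean expression over the 12 libraries (log2 CPM) on the x axis and the log2 fold change of CYT minus untreated on the y axis. Red points passed as higher (1439), blue points as lower (1657), and dashed lines mark a log2 fold change of 1. Nos2, C3 and Cd74 lie above 10 and Oxtr is the lowest labelled gene.

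The untreated libraries held 15812640 to 17835111 counts and the CYT libraries 17744203 to 19488861. The ribosomal RNA gene Rn45s took 8.91% ± 1.80 and 8.85% ± 0.850 of the counts (SD, n = 3). Counts of libraries of 1 group differed by 10.2 to 21.2 times sampling noise, so no library was a copy of another. The β-cell identity of the line showed in its markers, with Ins1, Ins2, Iapp, Pdx1, Mafa, Nkx6-1, Slc2a2 and Chga at values given below. Of 10 markers of other islet cells only Gcg and Ghrl could be tested. Gcg, the glucagon gene, fell from 265 to 37.3 CPM (log2 fold change -2.83 ± 0.39, adjusted p = 2.22e-05), while Ghrl had 1.42 and 1.75 CPM and Sst, Ppy and Hhex stayed at or below 0.122 CPM. Of 15 immune markers 4 were tested, with Ptprc, Itgam and Tyrobp at 0 in all 6 libraries, and Adgre1 (0.0191 to 1.35 CPM) passed as higher. Among those not tested, Lyz2 and Laptm5 had no untreated count and reached 0.175 and 0.233 CPM with CYT. Aif1 went the other way, from at most 0.122 to at most 0.0583 CPM. Of 18 endothelial, stromal and exocrine markers 4 were tested, with Prss1, Cpa1, Amy2a3 and Cftr at 0, Krt7 higher (1.86) and Pdgfra lower (-1.29). Among those not tested, Col1a1 had at most 0.182 CPM untreated and 0.652, 0.641 and 0.409 CPM with CYT. Acta2 had at most 0.0608 CPM untreated and 0.435, 0.816 and 0 CPM with CYT. Tek went from at most 0.118 CPM to 0. The part of such changes in the results was not tested. In bulk RNA, fewer cells of a kind and less RNA per cell cannot be told apart.

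**Figure D2:**
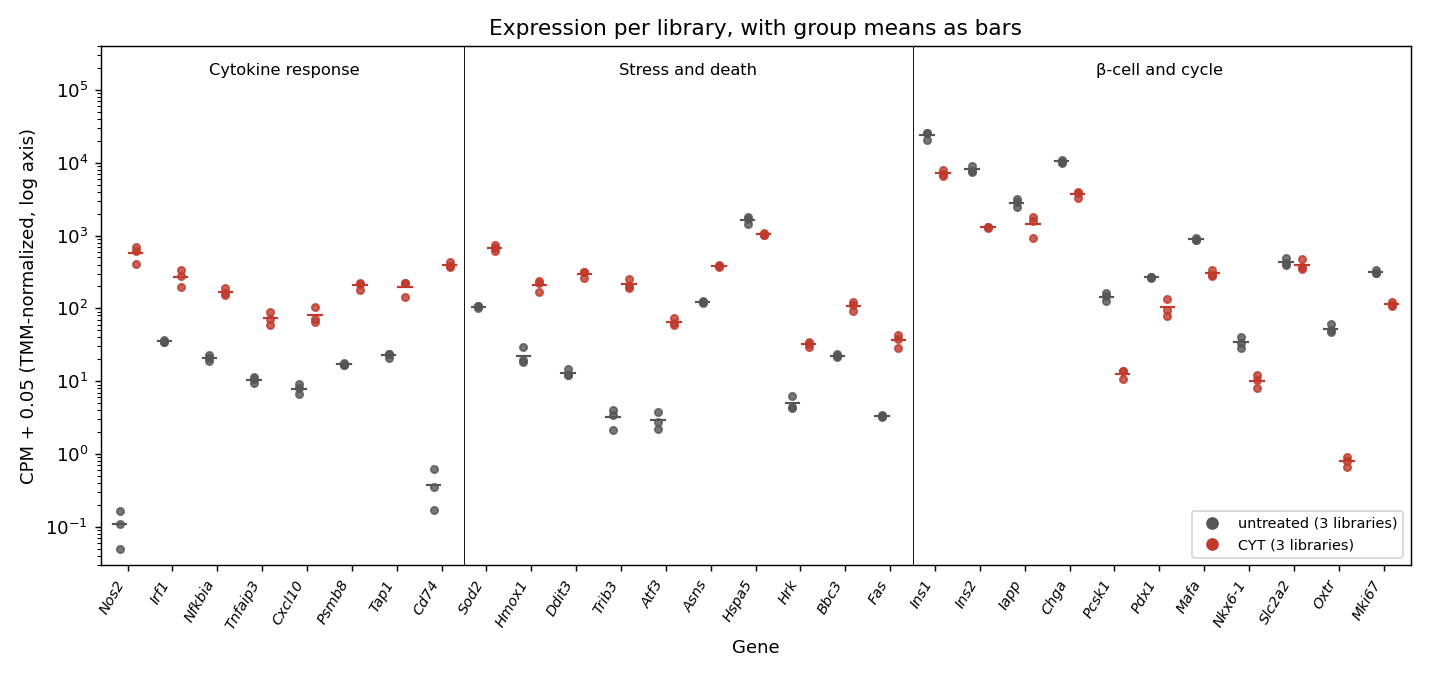
TMM-normalized CPM plus 0.05 (log axis) in each of the 3 untreated (grey) and 3 CYT (red) libraries for 29 genes, with a bar at each group mean. The groups overlap for Slc2a2 and for no other gene drawn, and did not overlap in 69.3% of all genes tested.

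NF-κB subunits and their inhibitors rose together. Of 15 genes on the list, 9 rose and none fell, with a median log2 fold change of 1.32. Nfkbia encodes IκBα, the inhibitor that NF-κB itself induces, and its promoter is printed above. Its CPM was 22.9, 18.9 and 20.9 in untreated libraries and 152, 161 and 191 in CYT libraries (log2 fold change 3.00 ± 0.11, adjusted p = 5.40e-11). The lowest CYT value was over 6 times the highest untreated one. Nfkb2 (3.63) and Relb (3.03), subunits of the noncanonical pathway, and the inhibitor-like Nfkbiz (3.06) rose by as much. Rela, the canonical subunit, had 94.3 and 139.7 CPM and did not pass.

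Genes downstream of the IL-1 receptor and its feedback loops followed, with 10 of 20 tested genes higher and 1 lower (median 1.05). Tnfaip3, the deubiquitinase A20 that ends NF-κB signalling, had CPM of 10.7, 9.35 and 11.5 in untreated and 59.5, 70.5 and 89.8 in CYT libraries (log2 fold change 2.80 ± 0.15, adjusted p = 1.30e-09). The inhibitor of apoptosis Birc3 (4.82), the kinase Ripk2 (4.77), the endoribonuclease Zc3h12a (4.69) and the kinase Map3k8 (4.19) rose most on the list. The one gene that fell was the receptor itself, Il1r1, from 404 ± 19.4 to 142 ± 33.8 CPM (SD, n = 3).

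In the IFN-γ route, the genes that rose were transcription factors. Irf1, an early IFN-γ target with the GAS shown above, had 34.9, 34.1 and 36.4 CPM in untreated and 195, 283 and 341 CPM in CYT libraries (log2 fold change 2.96 ± 0.16, adjusted p = 1.47e-09). Every CYT library exceeded every untreated one, and CYT replicate 3 was the highest. Of 8 interferon regulatory factors tested, 6 rose, led by Irf7 (3.62) and Irf5 (3.06). Of 16 JAK, STAT and SOCS genes 2 rose, among them Stat2 (1.64), and Socs2, a suppressor of cytokine signalling, fell (-1.34), a share close to the 21.6% of all genes tested.

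Antiviral interferon-stimulated genes had 23 of 28 tested members higher and none lower (median 2.96). Mx1 and Mx2 encode dynamin-like GTPases that block viruses, and Rsad2 encodes viperin. Rsad2 had 0.344, 0.355 and 0.365 CPM in untreated and 44.4, 84.4 and 152 CPM in CYT libraries (log2 fold change 8.02 ± 0.51, adjusted p = 7.72e-09), a more than 3-fold range among the CYT libraries but far from the untreated ones. Mx1 (8.38) and Mx2 (8.33) rose as strongly. The nucleic acid sensor Zbp1 had no count in untreated cells and 1.03, 1.17 and 1.58 CPM in CYT cells, at least 7.11-fold higher against a floor of 3 counts per library. Of 10 IFN-γ-inducible GTPases tested, which act against intracellular microbes, 8 rose (median 3.83, or 3.10 with Gbp1, which had no untreated count, at its bound). Gbp1 was at least 18.3-fold higher, and Gbp6 (7.24) and Gbp5 (6.14) also rose.

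Antigen presentation genes rose in number. For MHC class I, which shows peptides to CD8 T cells, 12 of 19 tested genes rose and none fell (median 1.98). Tap1, a subunit of the ER peptide transporter, had 23.3, 21 and 23.4 CPM in untreated and 143, 219.7 and 226 CPM in CYT libraries (log2 fold change 3.12 ± 0.16, adjusted p = 1.11e-09). B2m, the light chain of class I, had 144, 168 and 144 CPM untreated and 1024, 1037 and 1134 CPM with CYT (log2 fold change 2.81 ± 0.10, adjusted p = 3.32e-11). Neither gene showed overlap between groups. The class I heavy chains RT1-CE10 (3.27) and RT1-S3 (2.94) rose too, but the RT1 genes are close copies among which reads may have been split.

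Inducible and constitutive proteasome genes gave different counts. Of 6 immunoproteasome genes, 5 rose (median 1.97), while of 31 subunits of the constitutive proteasome none passed in either direction (median -0.08). Psmb8, an inducible catalytic subunit, had 16.8, 16.9 and 17.8 CPM in untreated and 181, 221 and 216 CPM in CYT libraries (log2 fold change 3.59 ± 0.12, adjusted p = 1.89e-11). Psmb9 (3.30), Psmb10 (2.19) and the activator Psme1 (1.75) rose with it. Among constitutive subunits the values farthest from 0 were those of Psma3 (-0.82) and Psmc6 (-0.60).

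MHC class II genes, usual in professional antigen-presenting cells, went from near 0 to clear expression. Of 15 genes listed 11 were tested, and 8 of them rose (median 8.86, or 8.17 with RT1-DMb at its bound). Members near 0 in untreated cells, such as RT1-DMb, RT1-Ba and RT1-Bb, entered the filter through libraries of treated cells, so they had to be higher. Among those not tested, Ctss, RT1-DOa and RT1-DOb stayed at or below 0.109 CPM, and RT1-Db2 rose from 0 to at most 2.12 CPM. Cd74, the invariant chain, had 0.573, 0.118 and 0.304 CPM in untreated and 429, 369 and 387 CPM in CYT libraries (log2 fold change 10.18 ± 0.20, adjusted p = 1.94e-13). RT1-Ba, a class II α chain, had 0.0573, 0.0592 and 0.182 CPM untreated and 188, 160.1 and 156 CPM with CYT, a ratio of summed counts of 1706 (95% exact interval 731 to 5254) that covers counting error only. RT1-DMb, a peptide loading factor, had no count in untreated cells and was at least 246-fold higher. The class II transactivator Ciita rose from 0.121 to 36.0 CPM, whereas Rfx5, Rfxank and Rfxap, which bind class II promoters at all times, had log2 fold changes of 0.24, 0.22 and -0.12 and did not pass. Ciita and these 3 genes were named after their values were seen. The leukocyte gene Ptprc stayed at 0 in all 6 libraries.

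Secreted signals rose with them. Of 20 chemokines and cytokines tested, 16 rose and 1 fell. The median was 5.63, or 3.18 with the 6 genes without an untreated count at their bounds. Those 6 entered the filter through libraries of treated cells and had to be higher. Cxcl10, a chemokine for T cells whose ISRE and NF-κB matches are shown above, had 9.11, 6.57 and 8.02 CPM in untreated and 71.1, 65.4 and 105 CPM in CYT libraries (log2 fold change 3.35 ± 0.22, adjusted p = 1.16e-08). The neutrophil chemokine Cxcl1 had 0.0573, 0.178 and 0 CPM untreated and 59.9, 63.9 and 98.4 CPM with CYT, a count ratio of 950.2 (95% exact interval 371 to 3489), and Cxcl2 had 0, 0.0592 and 0 CPM untreated and 32.7, 32.6 and 48.1 CPM with CYT (count ratio 1937 (95% exact interval 347 to 76551)). All 3 were separated between groups, as were 69.3% of all genes tested. Ccl20 and Csf2 had no untreated count and were at least 38.1-fold and 16.1-fold higher. Il33, an alarmin, fell from 3.87 to 1.39 CPM (-1.48).

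Surface ligands differed among themselves. Of 7 adhesion and checkpoint genes tested, 4 rose and 1 fell (median 1.2). The costimulatory receptor Cd40 (0.0573, 0.0592 and 0.0608 CPM untreated and 52.6, 74.4 and 77.9 CPM with CYT) had a count ratio of 1158 (95% exact interval 396 to 5617), and the integrin ligand Icam1 rose from 2.42 to 135 CPM (5.80). Lgals9 (4.79) and Nectin2 (1.2) rose as well. Cd274, which encodes the checkpoint ligand PD-L1, had 16.3, 15.7 and 15 CPM in untreated and 14.6, 15 and 16.7 CPM in CYT libraries, with overlapping groups and a log2 fold change of -0.02 ± 0.11 (adjusted p = 0.867). Its sign turned under other scalings. Cd200, a ligand that restrains myeloid cells, fell from 190.4 to 46.1 CPM (-2.05).

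Complement showed a narrow response, with 4 of 8 tested genes higher. C3, the central component, had 0.0573, 0.118 and 0.0608 CPM in untreated and 349, 313 and 362 CPM in CYT libraries (log2 fold change 11.96 ± 0.28, adjusted p = 8.32e-13), a count ratio of 4349 (95% exact interval 1698 to 15964). C1s (count ratio 42.9 (95% exact interval 18.1 to 134)), C1r (3.58) and the inhibitor Serping1 (3.56) rose too, and Cfb, C2, C4a and Cd55 did not pass. With either other filter on low counts the list median of 1.68 turned negative (-0.26 and -0.21), with other genes of the list tested.

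Nos2, the inducible nitric oxide synthase, had the largest rise among well-expressed genes. Its CPM was 0.115, 0 and 0.0608 in untreated libraries and 412, 605 and 688 in CYT libraries (log2 fold change 13.07 ± 0.43, adjusted p = 1.82e-11). The count ratio was 9659.5 (95% exact interval 3305 to 46842), and the fitted fold change depends on the small count added. The pseudogene Nos2-ps1 rose from 0 counts to 34.3 CPM, and reads could be split between the copies. Genes that supply arginine, the substrate of Nos2, rose with it, namely argininosuccinate synthase Ass1 (18.3 to 329 CPM, 4.17) and the arginine transporter Slc7a1 (2.22). The polyamine enzyme Odc1 also rose (1.27), and the other 9 of the 13 tested genes of this list did not pass.

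Defence against oxidants was raised at single genes. Of 20 NRF2 and antioxidant genes tested, 4 rose and 1 fell (median 0.34), against 21.6% of all genes tested passing. Sod2, the mitochondrial superoxide dismutase and an NF-κB target, had 109, 108 and 99.8 CPM in untreated and 604, 675 and 737 CPM in CYT libraries (log2 fold change 2.67 ± 0.10, adjusted p = 8.46e-11). Hmox1, haem oxygenase 1, had 29.9, 19.2 and 18.2 CPM untreated and 221, 236 and 169 CPM with CYT (log2 fold change 3.22 ± 0.22, adjusted p = 1.48e-08). Both genes were separated between groups by more than 5 times. Metallothioneins Mt1 (3.20) and Mt2A rose, Mt2A with a count ratio of 68.4 (95% exact interval 29.0 to 212). The NRF2 target Nqo1 fell (-1.03), a call near the threshold that was lost under RLE factors and without untreated replicate 1 (-0.98) or CYT replicate 3 (-0.76).

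Most tested genes of the ATF4 and CHOP programme rose. Of 17 genes tested 13 rose and none fell (median 2.05), on a list chosen with earlier results of these data known. Ddit3 encodes CHOP, a transcription factor of terminal ER stress, and had 12.1, 12.3 and 14.7 CPM in untreated and 265, 319 and 314 CPM in CYT libraries (log2 fold change 4.52 ± 0.18, adjusted p = 1.08e-10). Trib3, a pseudokinase induced by CHOP, had 2.12, 3.43 and 4.01 CPM untreated and 188, 257 and 199.9 CPM with CYT (log2 fold change 6.08 ± 0.35, adjusted p = 3.03e-09). Atf3 had 2.69, 3.73 and 2.19 CPM untreated and 58.5, 74.5 and 62.7 CPM with CYT (log2 fold change 4.50 ± 0.17, adjusted p = 7.57e-11). These 3 genes were at low levels in all untreated libraries and at least 10 times higher in each CYT library. The glutathione-degrading Chac1 rose as well (4.38).

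Genes that ATF4 is known to drive in amino acid supply moved the same way. Of 15 genes of amino acid synthesis and transport 13 rose (median 1.66). Asns, asparagine synthetase, had 117, 123 and 127 CPM in untreated and 385, 391 and 364 CPM in CYT libraries (log2 fold change 1.63 ± 0.08, adjusted p = 6.16e-10), with little spread in either group. The glycine transporter Slc6a9 (2.84), the mitochondrial folate enzyme Mthfd2 (2.71), the transporter chain Slc3a2 (2.02) and cystathionine γ-lyase Cth (3.18) rose most. Of 20 cytosolic aminoacyl-tRNA synthetases, which charge tRNAs with amino acids, 9 rose and none fell (median 0.87), led by Sars1 (153 to 822 CPM) and Cars1 (2.16).

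Most ER folding genes did not pass. Of 30 ER chaperone and ER-associated degradation genes, 7 fell (23.3%, against 11.6% of all genes tested), 2 rose and 21 did not pass (median -0.56). Hspa5, the chaperone BiP, had 1444, 1660.0 and 1805 CPM in untreated and 1003, 1017 and 1087 CPM in CYT libraries, with no overlap and a log2 fold change of -0.66 ± 0.11 that missed the fold threshold (adjusted p = 1.09e-04). The degradation factors Derl3 (-1.58) and Edem1 (-1.54) and the folding factors Creld2 (-1.47) and Dnajc3 (-1.27) fell. The members that rose were the stress sensor Ern1, which encodes IRE1α (55.1 to 274 CPM), and Herpud1 (1.49). Of 12 cytosolic heat shock genes none passed, with the values farthest from 0 at Hsp90aa1 (-0.81) and Hsf1 (0.79). Atp2a2, the ER calcium pump SERCA2, had 632, 702 and 659 CPM untreated and 426, 439 and 403 CPM with CYT and a log2 fold change of -0.65 ± 0.08, also under the threshold. Of 13 ER calcium genes 2 rose and 1 fell, a share close to the 21.6% of all genes tested. The calcium pump Atp2a3 and the channel Ryr3 rose (1.74 and 1.66), and the calcium pump Atp2a1 fell at low counts (1.34 to 0.365 CPM, -1.86), a call lost without untreated replicate 1 or 3 or CYT replicate 2 or 3 (adjusted p from 0.0154 to 0.0251).

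Among BCL2 family genes, 6 of 15 rose and 1 fell (median 0.60), and the genes that rose (Hrk, Bbc3, Bid, Bok, Bax and Bmf) are known to promote apoptosis. Hrk, known as DP5, had 4.41, 4.20 and 6.26 CPM in untreated and 32.0, 34.4 and 29.4 CPM in CYT libraries (log2 fold change 2.69 ± 0.19, adjusted p = 2.18e-08). Bbc3, known as PUMA, had 22.5, 23.3 and 21.3 CPM untreated and 92.9, 110.0 and 123 CPM with CYT (log2 fold change 2.28 ± 0.11, adjusted p = 5.63e-10). Bid (2.16) and Bok (1.23) rose as well, and the survival gene Bcl2 fell from 10.3 to 4.37 CPM (-1.24). Groups did not overlap for any of these genes, nor for 69.3% of all genes tested.

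Of 19 death receptor, caspase and gasdermin genes tested, 5 rose and 2 fell (1 to 3 fell without single libraries, median -0.20). These are 26.3% and 10.5%, against 10.0% and 11.6% of all genes tested. The death receptor Fas had 3.15, 3.37 and 3.28 CPM in untreated and 28.7, 37.4 and 43.8 CPM in CYT libraries (log2 fold change 3.48 ± 0.16, adjusted p = 4.30e-10). The inflammatory caspase Casp4 rose from near 0, with 0.0573, 0 and 0.122 CPM untreated and 7.39, 7.05 and 8.18 CPM with CYT and a count ratio of 128 (95% exact interval 43.5 to 624), and the pore former Gsdmd rose (1.65). Of the genes that fell, the pore former Gsdme had the larger change (-1.23). Of 21 p53 target genes 8 rose and 1 fell (median 0.47), among them Gadd45b (2.96) and Gadd45a (2.59). Cdkn1a, the cell cycle inhibitor p21, had 54.0, 51.3 and 48.7 CPM untreated and 94.3, 123 and 104 CPM with CYT (log2 fold change 1.06 ± 0.11, adjusted p = 1.04e-06), and its call was lost without CYT replicate 2 (0.95).

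**Figure D3:**
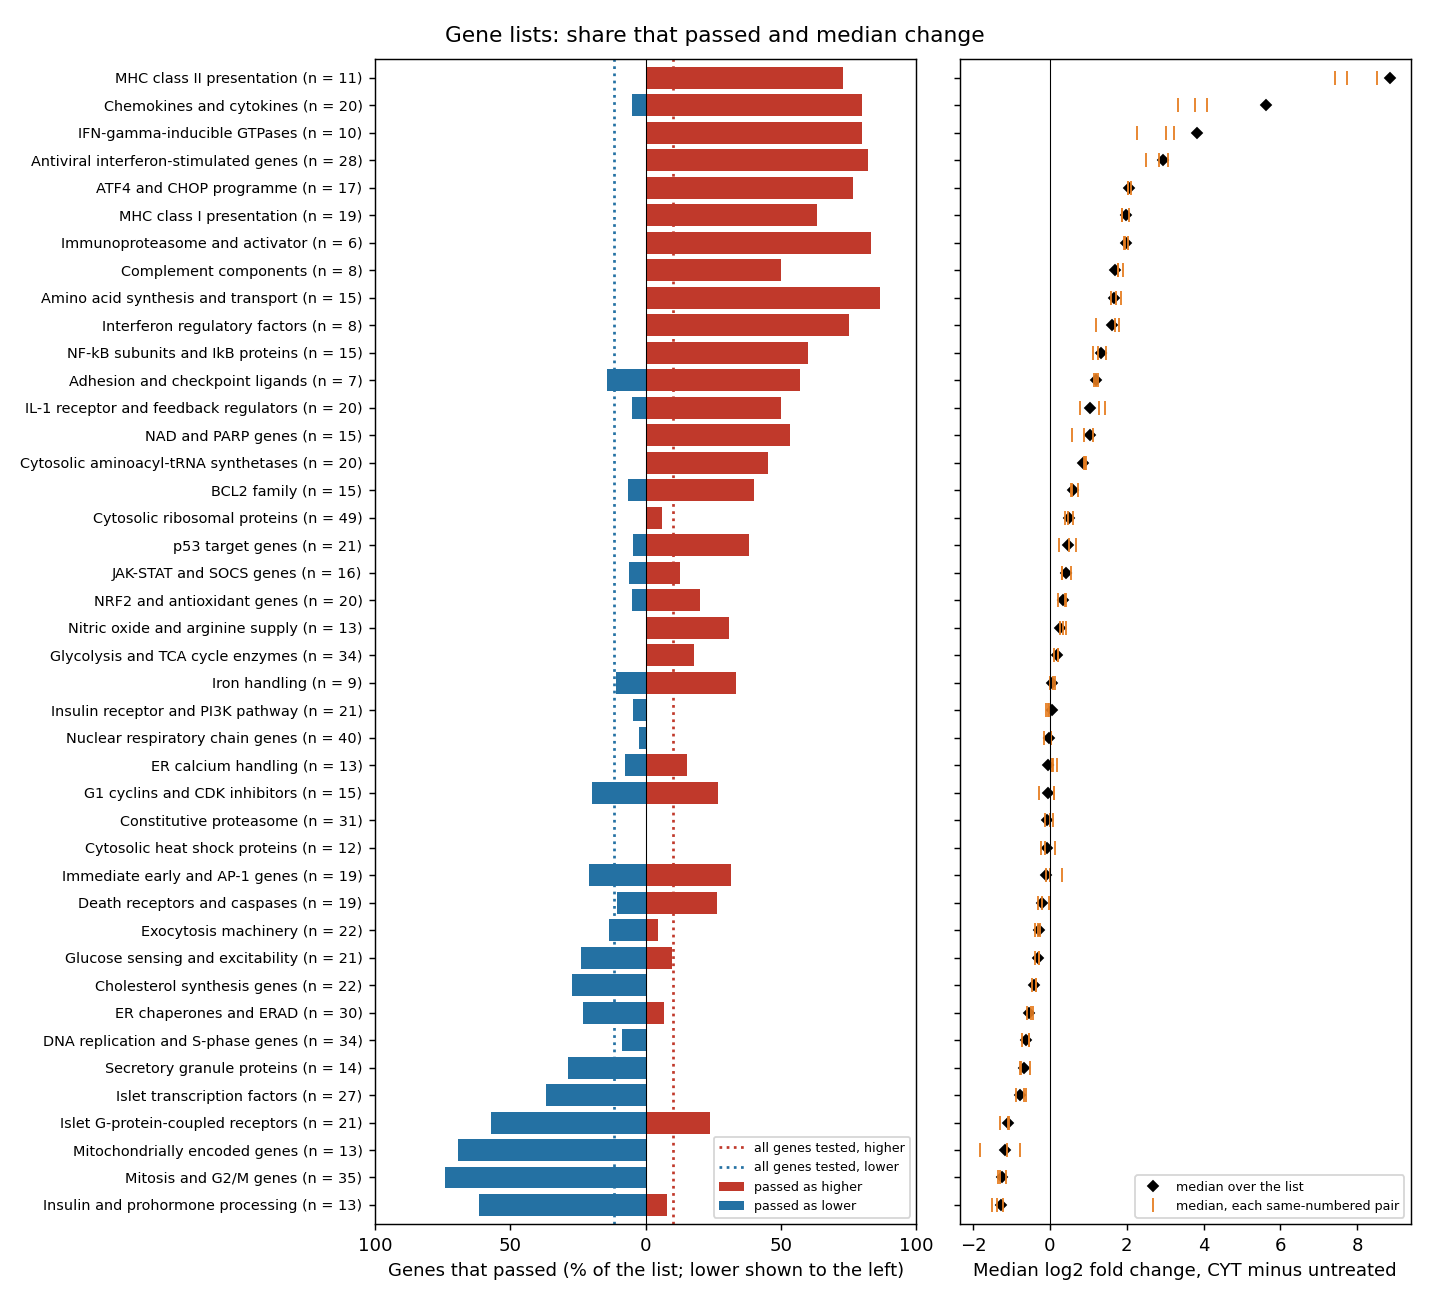
For 42 gene lists, the left panel shows the share of tested members that passed as higher (red) or lower (blue), with dotted lines at the shares of all genes tested (10.0% and 11.6%), and the right panel the median log2 fold change with the medians of the 3 same-numbered pairs as ticks. Pair values have a prior count of 2 and are smaller for genes near 0 in untreated cells. Most cytokine, interferon and antigen presentation lists lie in the upper part, and insulin processing, mitosis and mitochondrially encoded genes at the bottom.

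β-cell identity genes fell. Of 27 islet transcription factors tested, 10 fell and none rose (median -0.78), against 11.6% of all genes tested passing as lower. Pdx1, which activates the insulin genes, had 269, 262 and 266 CPM in untreated and 133, 96.2 and 79.5 CPM in CYT libraries (log2 fold change -1.37 ± 0.15, adjusted p = 2.91e-06). Mafa, a mature β-cell factor, had 857, 932 and 882 CPM untreated and 341, 281 and 285 CPM with CYT (log2 fold change -1.56 ± 0.11, adjusted p = 2.44e-08). Nkx6-1 had 28.9, 39.8 and 33.4 CPM untreated and 10.4, 11.9 and 8.13 CPM with CYT (log2 fold change -1.75 ± 0.20, adjusted p = 3.21e-06). No CYT library reached the lowest untreated library for these 3 genes. Isl1 (136 to 27.1 CPM) and Nkx2-2 (116 to 28.8 CPM) fell most on the list, with log2 fold changes of -2.32 and -2.01, and Bhlha15 fell too (-1.68).

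Insulin transcripts fell with them. Ins1 had 20655, 25565 and 25763 CPM in untreated and 6624, 7965 and 7002 CPM in CYT libraries (log2 fold change -1.74 ± 0.14, adjusted p = 1.04e-07). Ins2 had 7465, 7737 and 9089 CPM untreated and 1269, 1314 and 1302 CPM with CYT (log2 fold change -2.64 ± 0.12, adjusted p = 2.20e-10). Both were separated between groups, and reads of the near-identical coding parts could be split between them. The insulin genes together took 3.22% ± 0.440 of the counts in untreated cells and 0.839% ± 0.0565 in CYT cells (SD, n = 3). Iapp, which encodes the co-secreted amylin, had 3149, 2483 and 2863 CPM untreated and 1823, 914 and 1591 CPM with CYT and a log2 fold change of -0.97 ± 0.21, just under the threshold (adjusted p = 0.00125). It passed without untreated replicate 2, CYT replicate 1 or CYT replicate 3 (-1.04, -1.14 and -1.02). Ucn3 and G6pc2 were under 1 CPM in all 6 libraries and were not tested.

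Prohormone processing showed 8 of 13 tested genes lower and 1 higher (median -1.27). Pcsk1, the convertase that starts proinsulin cleavage, had 125, 164 and 147 CPM in untreated and 10.5, 13.8 and 13.8 CPM in CYT libraries (log2 fold change -3.52 ± 0.21, adjusted p = 4.42e-09), the steepest fall of the list among genes with more than a few counts. The amidating enzyme Pam fell (-1.77). The glutamate decarboxylases moved apart, with Gad1 rising from 14.5 to 81.0 CPM (2.48) and Gad2, the islet autoantigen GAD65, falling from 1.12 to 0.0181 CPM. A sum of 1 count was left for Gad2 in CYT cells, so its ratio of 0.0162 (95% exact interval 0.000402 to 0.0938) is loosely known.

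Of 14 secretory granule genes 4 fell (28.6%, against 11.6% of all genes tested) and none rose (median -0.68). Chga, chromogranin A, had 9884, 10904 and 10343 CPM in untreated and 3863, 3946 and 3299 CPM in CYT libraries (log2 fold change -1.49 ± 0.12, adjusted p = 7.60e-08). Rab27a (-2.01) and Sytl4 (-1.82), which tether granules at the membrane, and the calcium sensor Scgn (-1.35) fell. Slc30a8, the granule zinc transporter, had 949.9, 834 and 913 CPM untreated and 583, 383 and 441 CPM with CYT and a log2 fold change of -0.94 ± 0.14, under the threshold. Of 22 exocytosis genes 3 fell (2 to 5 without single libraries) and 1 rose, close to the shares of all genes. They were the SNARE Snap25 (-1.39), Syt13 (-1.15) and Cadps (-1.08, lost without CYT replicate 2 or 3 at -0.98 each), against Syt9, a calcium sensor of release (1.79).

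Glucose sensing and excitability genes were divided, with 5 of 21 tested genes lower and 2 higher (median -0.32). These are 23.8% and 9.52%, against 11.6% and 10.0% of all genes tested. Slc2a2, the glucose transporter GLUT2, had 492, 394 and 416 CPM in untreated and 471, 352 and 368 CPM in CYT libraries, with overlapping groups (log2 fold change -0.13 ± 0.14, adjusted p = 0.448). The cation channel Trpm5 (-2.94) and the sodium channels Scn3a (-1.78), Scn9a (-1.77) and Scn1a (-1.54) fell. The lactate and pyruvate transporter Slc16a1, known to be kept low in β-cells, rose from 16.1 to 37.3 CPM (1.22), and the potassium channel Kcnk3 rose (1.10, or 0.99 without CYT replicate 3).

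Islet G-protein-coupled receptors changed in both directions. Of 21 tested, 12 fell and 5 rose (median -1.10), or 9 to 12 and 5 to 6 without single libraries. The oxytocin receptor Oxtr had 49.9, 61.4 and 47.2 CPM in untreated and 0.761, 0.874 and 0.613 CPM in CYT libraries (log2 fold change -6.14 ± 0.22, adjusted p = 3.52e-11). The α2A-adrenergic receptor Adra2a, which inhibits insulin release, had 98.4, 104 and 107 CPM untreated and 11.3, 9.44 and 5.32 CPM with CYT (log2 fold change -3.58 ± 0.22, adjusted p = 5.00e-09). In neither gene did the groups come near each other. The somatostatin receptor Sstr5 also fell (-3.99). The PACAP receptor Adcyap1r1 rose from 67.1 to 657 CPM (3.29), the dopamine receptor Drd2 from 3.93 to 31.3 CPM, the somatostatin receptor Sstr3 by 2.78 and the glucagon receptor Gcgr by 2.71 on the log2 scale. Of 21 genes of the insulin receptor and PI3K pathway only the adaptor Irs2 passed, falling from 561 to 169 CPM (-1.73).

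The cell cycle genes that passed as lower were mostly mitotic. Of 35 mitosis and G2/M genes 26 fell (74.3%, against 11.6% of all genes tested) and none rose (median -1.25). Of 34 DNA replication genes 3 fell (8.82%, median -0.63), a count that ran from 2 to 5 when single libraries were left out. Replication genes were not spared, as the log2 fold change was negative in 30 of these 34, though few went beyond the threshold. Mki67, a proliferation marker, had 309, 311 and 331 CPM in untreated and 120.5, 112 and 109 CPM in CYT libraries (log2 fold change -1.48 ± 0.09, adjusted p = 4.76e-09), with tight groups. The topoisomerase Top2a (-2.11), the kinetochore genes Cenpf (-1.85) and Ndc80 (-1.78) and the cyclin Ccnf (-1.79) fell most. The replication gene Rrm2, a subunit of ribonucleotide reductase, fell from 139.8 to 33.6 CPM (-2.06).

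G1 regulators were mixed, with 4 of 15 higher and 3 lower, or 2 and 2 without CYT replicate 2. The 4 and 3 genes are 26.7% and 20%, against 10.0% and 11.6% of all genes tested. Myc rose from 28.0 to 117 CPM (2.06) and Cdk6 rose (1.89), and Cdk2 (-1.65) and the inhibitor Cdkn2c (-2.19) fell. Ccnd1, cyclin D1, had 0.172, 0.651 and 0.547 CPM untreated and 1.25, 1.69 and 1.58 CPM with CYT (log2 fold change 1.72 ± 0.43, adjusted p = 0.00293), and this call at low counts was lost without untreated replicate 1 or CYT replicate 2 (adjusted p = 0.0145 and 0.0109). Of 19 immediate early genes 6 rose (31.6%) and 4 fell (21.1%). Maff (4.59), Atf3 (4.50) and Junb (2.89) rose, and Klf2 (48.3 to 3.50 CPM, -3.79) and Fos (-2.90) fell.

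Energy metabolism changed in its mitochondrially encoded part. Of 13 protein genes of the mitochondrial genome 9 fell and none rose (median -1.18), while of 40 nuclear genes of the respiratory chain only Ndufa4 passed (-1.06), a call lost without CYT replicate 2 or 3 (list median -0.03). ND4 had 2572, 2265 and 1699 CPM in untreated and 678, 353 and 584 CPM in CYT libraries (log2 fold change -2.02 ± 0.33, adjusted p = 1.17e-04). CYTB had 5151, 4761 and 3947 CPM untreated and 3132, 1425 and 2207 CPM with CYT (log2 fold change -1.03 ± 0.24, adjusted p = 0.00181). Neither gene overlapped between groups, yet CYT replicate 2 was the lowest CYT library in 13 of the 13 genes. It was the lowest for 31.0% of all genes tested and 45.1% of those that passed as lower. Without CYT replicate 2, 6 of 13 fell (median -1.0), with CYTB at -0.79 and ND1 at -0.90. The CYTB call was also lost without untreated replicate 1 (-0.94), untreated replicate 2 (-0.99) or CYT replicate 3 (-0.99). All counts of mitochondrial genes took 5.87% ± 0.937 of the library in untreated and 3.87% ± 0.829 in CYT cells.

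Of 34 glycolysis and TCA cycle genes 6 rose and none fell (median 0.17). These are 17.6% higher and 0% lower, against 10.0% and 11.6% of all genes tested. In either direction 21.6% of all genes tested passed. Acod1, which makes itaconate from a TCA intermediate in activated macrophages, had 0.0573, 0.118 and 0 CPM in untreated and 11.8, 10.4 and 14.9 CPM in CYT libraries, a count ratio of 211 (95% exact interval 71.9 to 1026). The kinase Pdk2 (1.74) and the aldolases Aldoa (1.36) and Aldoc (1.19) rose. Of 22 cholesterol synthesis genes 6 fell (27.3%, against 11.6% of all genes tested), among them Idi1 (-1.74), Stard4 (-1.70) and Hmgcs1 (-1.42). Without single libraries 4 to 6 fell, with 4 without CYT replicate 3. The list median was -0.42. Of 9 iron genes 3 rose (33.3%) and 1 fell (11.1%), against 10.0% and 11.6% of all genes tested. The siderophore carrier Lcn2 had 0.0573, 0 and 0 CPM untreated and 79.9, 118 and 118 CPM with CYT (count ratio 5344 (95% exact interval 959 to 211125)). The ferritin light chain Ftl1 was at 1.89, the iron importer Slc11a2 at 1.84 and the iron exporter Slc40a1 at -1.85 on the log2 scale. Of 15 NAD and PARP genes 8 rose (median 1.03), with Parp3 (2.08) and the NAD salvage enzyme Nampt (1.33) among them. Of 49 cytosolic ribosomal protein genes 3 passed, all higher (Rpl12, Rpl10a and Rps20), although the list median was 0.49. This share of 6.12% is below the 10.0% of all genes tested that passed as higher. The log2 fold change was positive in 48 of the 49, though few went beyond the threshold. Many pseudogenes make reads of this family uncertain.

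Outside the lists, the largest rises among well-expressed genes included lymphotoxin β, Ltb, with 0.344, 0.592 and 0.365 CPM in untreated and 137, 176 and 235 CPM in CYT libraries (log2 fold change 8.70 ± 0.28, adjusted p = 1.82e-11), and the agrin receptor Lrp4 with 0.745, 0.888 and 0.547 CPM untreated and 194, 324 and 255 CPM with CYT (log2 fold change 8.45 ± 0.32, adjusted p = 5.00e-11). Both went from under 1 CPM to over 100 CPM. The largest falls included Stc1, the hormone stanniocalcin 1, with 507, 686 and 513 CPM untreated and 40.6, 32.6 and 31.3 CPM with CYT (log2 fold change -4.03 ± 0.20, adjusted p = 6.60e-10), the sulphate transporter Slc26a2 (-3.74), the fatty acid hydroxylase Cyp4a8 (-3.92), Fgl2 (-3.64), Iqgap2 (-3.61) and the lysolipid transporter Mfsd2a (-3.42). By the difference in CPM, the autophagy receptor Sqstm1, known as p62, rose most, from 657 ± 18.4 to 2381 ± 125 CPM (SD, n = 3). Ckmt1, mitochondrial creatine kinase, rose from 79.3 to 1098 CPM (3.79), and the secreted Lgals3bp (2.25), Ccdc86 (2.08), the splicing factor Prpf19 (1.18), the tetraspanin Cd63 (1.15) and Actn4 (1.32) were in the same group of 10. Potef, an actin-like gene whose close copies share reads, and LOC100361457 were there as well. Fn1, fibronectin, fell from 2068 to 684 CPM (-1.59), and Gnas, the stimulatory G protein subunit, fell by a log2 change near the threshold (-1.06, or -0.97 without CYT replicate 3).

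The CYT libraries differed among themselves more than the untreated ones. The median SD of log2 CPM per gene was 0.172 over the CYT libraries and 0.109 over the untreated libraries. Among genes that rose, with a mean log2 CPM above 2, the 6 with the widest CYT spread were all antiviral. Of the 28 tested antiviral genes, 25 were lowest in CYT replicate 1 and 23 highest in CYT replicate 3, or 89.3% and 82.1%. Of the 1439 genes that passed as higher, 62.1% were lowest in CYT replicate 1 and 41.3% highest in CYT replicate 3, and of all genes tested 29.9% and 33.4% were, and these shares were not tested against each other. Mx2 had 149, 261 and 435 CPM in the CYT libraries and Herc6, a ubiquitin ligase for ISG15, had 16.4, 22.0 and 42.6 CPM. Both sat well above the untreated libraries (0.630, 1.12 and 0.851 CPM and 2.01, 2.31 and 1.52 CPM). All 10 IFN-γ-inducible GTPases were highest in CYT replicate 3. In contrast, 7 of 11 MHC class II genes (63.6%) and 19 of 22 cholesterol synthesis genes (86.4%) were highest in CYT replicate 1. That library was highest for 31.15% of all genes tested, 12.2% of those that passed as higher and 56.7% of those that passed as lower. Without CYT replicate 3, 20 of the 28 antiviral genes rose (median 2.74).

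**Figure D4:**
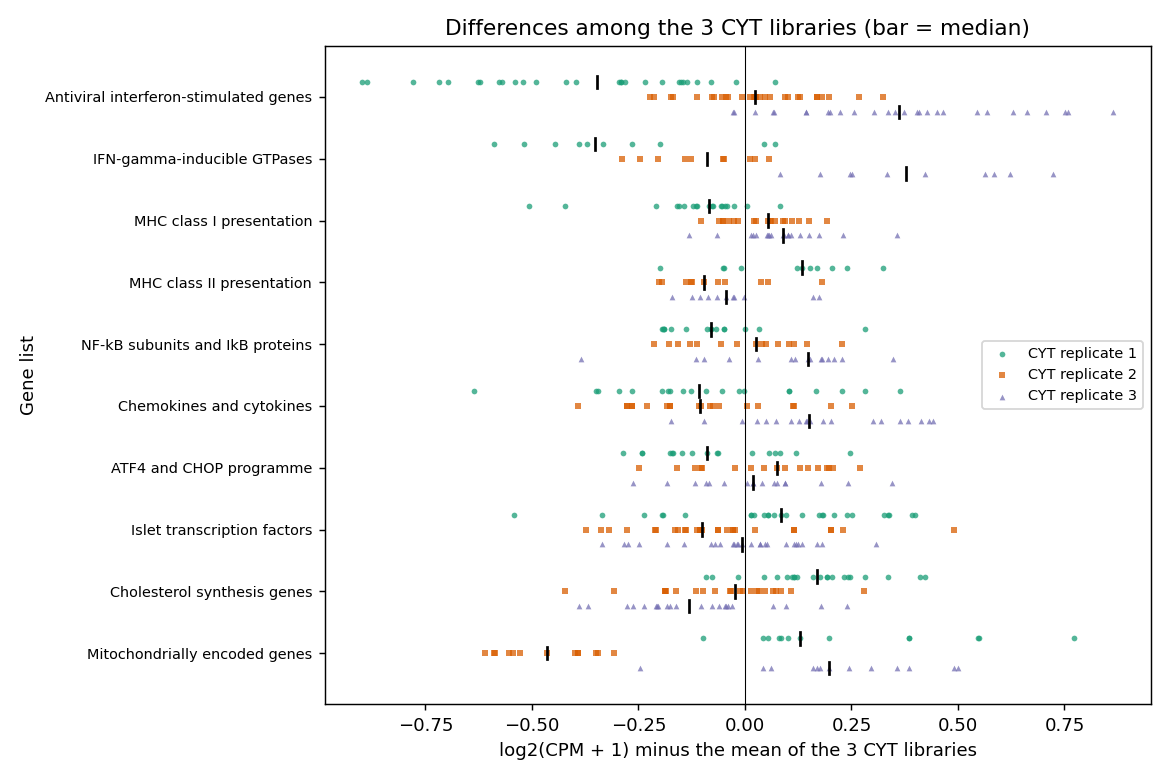
For 10 gene lists, log2(CPM + 1) of each gene in each CYT library minus the mean of the 3 CYT libraries, with a black bar at the median per library. Medians of the antiviral list were -0.35, 0.02 and 0.36 for CYT replicates 1, 2 and 3, and those of mitochondrially encoded genes were 0.13, -0.47 and 0.20.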

How the data were processed

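Per the labels and the study's methods, total RNA of INS-1E cells was made into TruSeq libraries, and the authors used FastQC for read quality, rfastp for trimming, and Rsubread for alignment to the mRatBN7.2 build and for counting by featureCounts. The submitters' processing notes name R 4.3.3. The deposited file holds raw counts per gene symbol and library, not normalized. No strand setting is stated, so values of overlapping genes are uncertain. Of the 3096 genes that passed, 2885 were matched in RefSeq (GRCr8) and 1265 of these overlap another gene there.

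Libraries were assigned to groups by the labels, and 0 columns were left unused. In R 4.3.3, genes over 1 CPM in 2 or more libraries entered the test, scaled by TMM, as in the study's methods. All 12 libraries entered 1 fit of edgeR 4.0.16 (quasi-likelihood, no block), where the study used exactTest. The fit left 8 residual degrees of freedom and a common biological coefficient of variation of 0.123. Adjusted p-values are Benjamini-Hochberg over 14324 genes. A gene passed with a log2 fold change beyond 1 in size and an adjusted p under 0.01. Standard errors of log2 fold changes come from the fold change and the F statistic. Values are TMM-normalized CPM. Reads carry no molecular identifiers, so count ratios and floors (3 counts per library) cover counting error only. Total counts per library are given in the report. On simulated counts for this comparison, with 14063 genes tested, 172 of 200 genes changed by a log2 fold change of 1.5 (86%) and 0 unchanged genes passed. The simulation changed 200 of 14324 genes, evenly in both directions, from 1 pooled mean per gene. In the data 21.6% of genes passed and many were near 0 in 1 group, so the simulation does not give the error rate of the real comparison.

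The gene lists and members were chosen with earlier results of these data known. Genes named are a set of cytokine, stress and β-cell genes, up to 4 rises and 4 falls that passed in each list (the 2 values farthest from 0 where under 10% passed) and list members that passed against the list, and over all genes that passed the 10 largest rises and falls by fold (mean log2 CPM above 2, same sign in 3 same-numbered pairs, no LOC, RGD or pseudogene symbols) and by CPM. Not every gene that meets the rule is given, and a few are not reported here. Rela, Nampt, Bax, Bmf, Nos2-ps1, Herc6, and the complement genes that did not pass were named after their values were seen. Deviations from group means of same-numbered libraries correlated by 0.09, 0.18 and -0.12, so numbers were not taken to pair samples. Alternatives were RLE factors, no composition factor, exactTest, DESeq2 1.42.0, other filters and thresholds, the 2 groups alone, a replicate block, leaving out each library and, chosen after seeing the data, leaving out Rn45s. Promoters are from RefSeq (GRCr8), matched by symbol to 10925 of 14324 genes (76.3%), with the first listed start used.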

Additional observations from a re-analysis of the deposited data

Results flagged for a closer look

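For the 20 genes with the largest fold changes in either direction, the CYT response was also tested against the response of cells preconditioned with IL-1βlow, as an interaction in the same edgeR quasi-likelihood fit with Benjamini-Hochberg adjustment over all genes tested. The interaction passed (adjusted p under 0.01, log2 size above 1) in 17 of the 20, and in 10.7% of all 14324 genes tested, of which 785 were positive and 745 negative. The 20 genes were chosen for a large response in cells without preconditioning, which favours a smaller response on the other side, so the direction is given as a description. The baseline also differed, with C3 at 0.0788 CPM in untreated and 9.19 CPM in IL-1βlow cells, Cd74 at 0.332 and 11.1 CPM, and Oxtr at 52.9 and 24.9 CPM.

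Among genes that rose, the interaction on the log2 scale was -7.89 for C3 (response 11.96 against 4.07 in preconditioned cells), -5.69 for Cd74 (10.18 against 4.48), -5.13 for Rsad2 (8.02 against 2.89), -4.38 for RT1-Ba (10.64 against 6.26), -4.06 for Mx2 (8.33 against 4.28), -2.65 for Lrp4 (8.45 against 5.80) and -2.12 for Ltb (8.70 against 6.58). It did not pass for Nos2 (-3.0 ± 2.59 SE, adjusted p = 0.384), RT1-Da (-2.31, adjusted p = 0.0118) and Mx1 (-3.36, adjusted p = 0.0418). Nos2 had 0.0585 CPM in untreated and 0.0375 CPM in IL-1βlow cells, baselines near 0 that leave its interaction loosely known. It had 569 CPM in CYT cells and 48.8 CPM in preconditioned CYT cells, a difference that was not tested here.

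Among genes that fell, it was 3.56 for Oxtr (response -6.14 against -2.57), 3.48 for Klf2 (-3.79 against -0.31), 2.99 for Cyp4a8 (-3.92 against -0.93), 2.79 for Stc1 (-4.03 against -1.24), 2.58 for Adra2a (-3.58 against -1.0), 2.54 for Pcsk1 (-3.52 against -0.98), 2.38 for Slc26a2 (-3.74 against -1.35), 1.92 for Mfsd2a (-3.42 against -1.5), 1.73 for Fgl2 (-3.64 against -1.91) and 1.39 for Iqgap2 (-3.61 against -2.23). Groups of 3 are too small for a test of single outlying libraries.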

How the results depend on the processing

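The number of genes that passed was 3096 (1439 higher and 1657 lower) and stayed within 1.5 times of that under RLE factors, no composition factor, exactTest, DESeq2, either filter, the 2 groups alone, the replicate block and without Rn45s (2446 to 3530). With glmTreat, which tests against the fold threshold itself, 1404 passed (849 higher and 555 lower, 60.5% higher against 46.5%). At an adjusted p under 0.05 without a fold minimum, 8926 passed (4383 higher and 4543 lower). Without single libraries 2771 to 3201 passed, of which 1359 to 1585 were higher and 1412 to 1616 lower. With the replicate block 3246 passed, 3085 of them shared with the fit without it. The amylin gene Iapp passed with the block (log2 fold change -1.02, quasi-likelihood adjusted p = 2.89e-06) and not without it (-0.97, adjusted p = 0.00125). An unadjusted p under 0.05 was found for 10173 genes with the block and 9444 without it. Deviations of same-numbered untreated and CYT libraries correlated by 0.09, 0.18 and -0.12. That check leaves out the preconditioned libraries, which the block also covers, so it cannot settle whether samples were paired.

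Of 218 named genes, 158 kept their direction and side of the threshold in all 17 settings. Cd274, which did not pass, turned from -0.02 to 0.0073 with RLE factors, 0.0075 with DESeq2, 0.048 without a filter and 0.018 with the 2 groups alone, and ran from -0.056 to 0.053 without single libraries. The cause was not tested. No scaling moved the median of all genes by more than 0.07. Depth limits genes near 0 in 1 group, whose fitted fold changes depend on the prior count.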

Other observations

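Further genes went from at most 3 counts in every untreated library to clear expression in CYT cells, and all are named after their values were seen. The polymeric immunoglobulin receptor Pigr had 21.7, 24.4 and 21.6 CPM in the CYT libraries and the Fc receptor Fcamr 24.3, 31.4 and 31.4 CPM. The chemokine Ccl1 had 26.1, 33.1 and 44.6 CPM. Peptide hormone genes were among them, with Calcb, a calcitonin gene-related peptide, at 16.5, 21 and 26.4 CPM, adrenomedullin, Adm, at 14.1, 12.9 and 19.4 CPM and the glycoprotein hormone subunit Gpha2 at 33.7, 33.7 and 28.2 CPM. The lymphocyte activation marker Cd69 had 14.7, 9.27 and 17.4 CPM, while Ptprc stayed at 0.

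In the opposite direction, 7 genes had CPM above 1 in every untreated library and at most 3 counts in each CYT library. Those with gene names were Dleu7 (4.70, 2.66 and 2.98 CPM untreated), the integrin chain Itgal (2.29, 2.25 and 1.76 CPM) and Cimap3 (2.29, 1.89 and 1.76 CPM).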
